A study of Mus musculus with 12 samples.

Results

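*Hand1*, *Hand2*, *Isl1*, *Nkx2-5*, *Gata4*, *Gata5*, *Gata6*, *Irx4*, *Myocd* and *Srf* encode transcription factors of the early heart fields and of heart muscle. These 10 genes were taken by symbol from the 23420 genes listed in each of the count tables, and all 10 had enough counts to be tested in both lines. Whole mouse embryos at embryonic day 12.5 were sequenced, with 1 library per embryo and 3 embryos per group. In the *Carm1* line, on the C57BL/6 strain, embryos homozygous for the *Carm1tm1Mtb* allele (*Carm1* null) were compared with *Carm1* wild-type embryos, and in the *Pax3* line, on a mixed strain, embryos homozygous for *Pax3Sp2h*, the Splotch allele (*Pax3* null), were compared with *Pax3* wild-type embryos. Heterozygous parents were intercrossed in both lines, and all embryos were otherwise untreated. The sources used here do not say which embryos shared a litter, so *P* values measure the spread between these embryos. The study asked how loss of CARM1, an arginine methyltransferase and transcriptional coactivator, alters gene expression in embryos with heart defects, and whether the changes resemble those of embryos that lack PAX3.

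The heart is built from 2 pools of mesodermal progenitors, the first and second heart fields. NKX2-5, a homeodomain protein, and the zinc finger proteins GATA4, GATA5 and GATA6 act together in cardiac progenitors. HAND1 and HAND2 are basic helix-loop-helix factors that mark mainly the left and the right ventricle, respectively, and both are also made in the pharyngeal arches, while HAND2 acts in the limb bud and in sympathetic neurons. ISL1 is a LIM homeodomain protein of second heart field progenitors and of motor and sensory neurons. IRX4 is a homeodomain protein of the ventricles. SRF binds the CArG box in the promoters of muscle and immediate early genes, and MYOCD is its coactivator in heart and smooth muscle. In whole embryos a lower level can mean fewer cells that make the RNA or less RNA per cell, which cannot be told apart here.

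Promoters were available for 6 of the 10 genes in the RefSeq table (*Hand2*, *Isl1*, *Nkx2-5*, *Gata5*, *Irx4* and *Srf*), each as a window of 250 bases before to 50 bases after the start of the gene on GRCm38.p6, the build that mm10 denotes. *Hand1*, *Gata4*, *Gata6* and *Myocd* had no sequence used here. The 3 promoters shown belong to genes called as changed in the *Pax3* line and hold a motif for a member of the group. Of these calls, only that of *Isl1* held once gene length and GC content were taken into account, as given below. In *Srf* the capitals mark CArG boxes, the site bound by SRF itself, and in *Hand2* and *Isl1* they mark the letters AGATAA, bound by GATA factors, searched on both strands and reading TTATCT in the printed strand of *Hand2*.
*Srf*, chr17:46556113-46556412, minus strand: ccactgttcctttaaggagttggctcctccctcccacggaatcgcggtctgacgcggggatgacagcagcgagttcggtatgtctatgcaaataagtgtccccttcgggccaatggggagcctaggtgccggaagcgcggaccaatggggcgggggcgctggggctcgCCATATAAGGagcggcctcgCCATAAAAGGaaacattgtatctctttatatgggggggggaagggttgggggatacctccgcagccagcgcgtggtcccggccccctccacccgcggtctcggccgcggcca
*Hand2*, chr8:57320733-57321032, plus strand: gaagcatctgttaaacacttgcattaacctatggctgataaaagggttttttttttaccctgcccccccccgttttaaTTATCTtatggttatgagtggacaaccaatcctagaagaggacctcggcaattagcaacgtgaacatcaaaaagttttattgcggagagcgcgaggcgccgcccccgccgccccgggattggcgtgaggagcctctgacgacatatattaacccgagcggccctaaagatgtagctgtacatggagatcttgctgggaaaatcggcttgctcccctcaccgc
*Isl1*, chr13:116309639-116309938, minus strand: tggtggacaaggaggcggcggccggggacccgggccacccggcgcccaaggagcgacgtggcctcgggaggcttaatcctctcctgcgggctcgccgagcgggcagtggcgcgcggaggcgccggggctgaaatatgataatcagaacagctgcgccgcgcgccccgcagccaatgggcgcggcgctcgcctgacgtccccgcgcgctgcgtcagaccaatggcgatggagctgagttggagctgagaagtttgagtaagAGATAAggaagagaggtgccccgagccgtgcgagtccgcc
The *Srf* window held 2 CArG boxes, beginning 82 and 62 bases before the start of the gene, whereas 1.6% of 32851 promoter windows of the same length held any. The motif AGATAA began 172 bases before the start of *Hand2* and 11 bases after the start of *Isl1*, and 11.2% of all windows held it. A match of letters is a description and not a measured binding site.

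The libraries held 17183344 to 23518692 counts. The targeted gene *Carm1* fell in *Carm1* null embryos by 0.998 on the log2 scale (SE 0.05, edgeR adjusted *P* = 1.23e-15), from 2542, 3384 and 2808 counts in wild type to 1299, 1237 and 1293. *Pax3* fell in *Pax3* null embryos by 0.43 (SE 0.09, edgeR adjusted *P* = 0.0014) and was still counted at 426 to 501 reads in the null embryos. Counts over all exons do not test the Splotch allele. In the other line of each, *Pax3* was higher in *Carm1* null embryos by 0.37 (SE 0.08, edgeR adjusted *P* = 0.0010). *Carm1* did not pass in the *Pax3* line (log2 fold change −0.07, edgeR adjusted *P* = 0.38). Counts of Y-linked genes were present in wild-type replicate 3 of the *Carm1* line, and in null replicate 3 and wild-type replicates 2 and 3 of the *Pax3* line. The median log2 fold change of the tested genes moved in the *Pax3* line with the GC content of the transcript, from −0.11 in the 3121 genes of lowest GC content to 0.16 in the 3121 of highest, whereas over the same 5 classes it lay between −0.0088 and 0.0098 in the *Carm1* line. The class of highest GC content held 7 of the 10 factors: *Hand1*, *Hand2*, *Nkx2-5*, *Gata4*, *Gata5*, *Irx4* and *Srf*. Results fitted with length and GC offsets per gene are therefore given for the 10 factors in the *Pax3* line. They are also given for the counts of cardiomyocyte genes and paralogues. The other gene lists of the *Pax3* line are given without the offsets, and whether their changes hold under them is not reported here.

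Levels per length, as counts scaled to library size (CPM) divided by exon length in kilobases (RPKM), placed the same 3 genes at the top in every group. *Srf* stood at 27.8 ± 0.34 RPKM in *Carm1* null embryos, 27.9 ± 0.67 in their wild type, 31.5 ± 1.36 in *Pax3* null embryos and 27.1 ± 0.11 in theirs (mean ± SD, n = 3). *Hand2* followed at 19.0 ± 2.17, 18.3 ± 0.08, 22.6 ± 0.59 and 17.3 ± 1.01 RPKM in the same order of groups. *Isl1* came next at 10.5 ± 0.19, 10.3 ± 0.46, 8.03 ± 0.45 and 10.8 ± 0.72 RPKM. The libraries of these 3 genes did not overlap within any group. The other 7 lay between 0.99 and 3.74 RPKM, and many neighbors in that part of the order overlapped. *Gata4* was the highest of the 7 in 3 groups, and *Hand1* was above it, at 3.54 against 3.26 RPKM with overlapping libraries, in *Carm1* null embryos. *Myocd* was the lowest in 3 groups and *Gata5* in *Carm1* wild type.

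**Figure D1:**
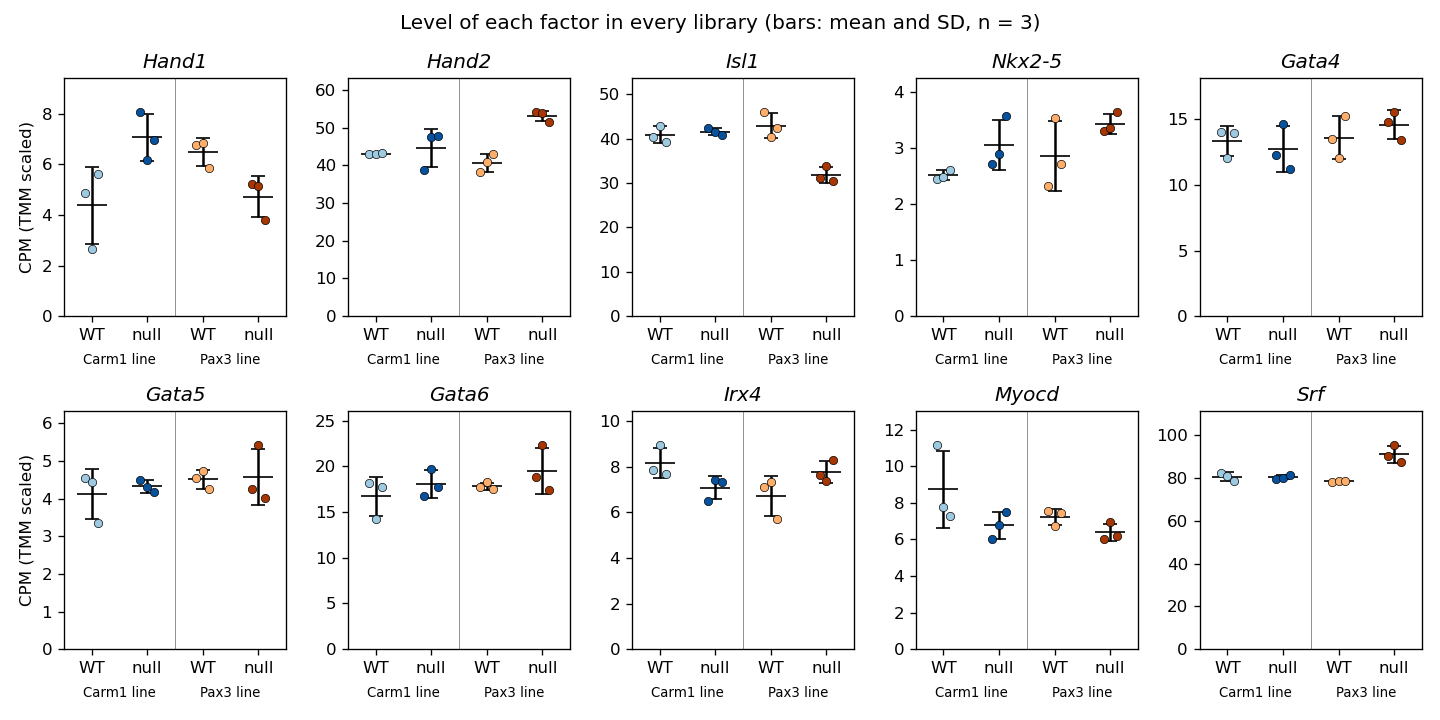
Level of each of the 10 genes in CPM (vertical axes, each starting at 0) in the 12 libraries, with points for embryos and bars for the group mean and SD. *Hand1* points of *Carm1* null embryos lie above those of their wild type, while *Hand1* points of *Pax3* null embryos lie below those of theirs.

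Only 1 of the 10 factors in the *Carm1* line passed the threshold of an adjusted *P* of 0.05, *Hand1*, which was higher in null embryos. Over all 15811 genes tested, 13.3% passed, 5.49% as higher and 7.83% as lower in null embryos, so the share among the factors was close to that of all genes. With length and GC offsets 1689 genes were higher and 1334 lower, against 868 and 1238 without them, and *Hand1* was still the only factor called. Leaving out each library in turn gave 0 to 2 factors. The median log2 fold change of the 10 was 0.03, beside 0.0014 over all genes tested. The libraries of null and wild-type embryos did not overlap for 3 factors (*Hand1*, *Nkx2-5* and *Irx4*), as for 30.0% of all genes. Among *Pax3* line embryos 4 of the 10 passed: *Hand2* and *Srf* were higher and *Isl1* and *Hand1* lower in null embryos. There 24.5% of the 15724 genes tested passed, 14.0% as higher and 10.5% as lower. With length and GC offsets 2 of the 4 passed, *Isl1* and *Hand1*, and 17.5% of all genes tested passed under that setting. The median log2 fold change of the 10 was 0.12, beside −0.0026 over all genes tested. The groups did not overlap for 5 factors (the 4 that passed and *Irx4*), as for 39.9% of all genes. The effect differed between the lines for the same 4 genes, *Hand1*, *Hand2*, *Isl1* and *Srf*, in a fit of all 12 libraries, as it did for 19.1% of the 16292 genes tested there. The shares of all genes called higher and lower in each line are the background for the counts of gene lists below. Several of the small counts lie near these shares.

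**Figure D2:**
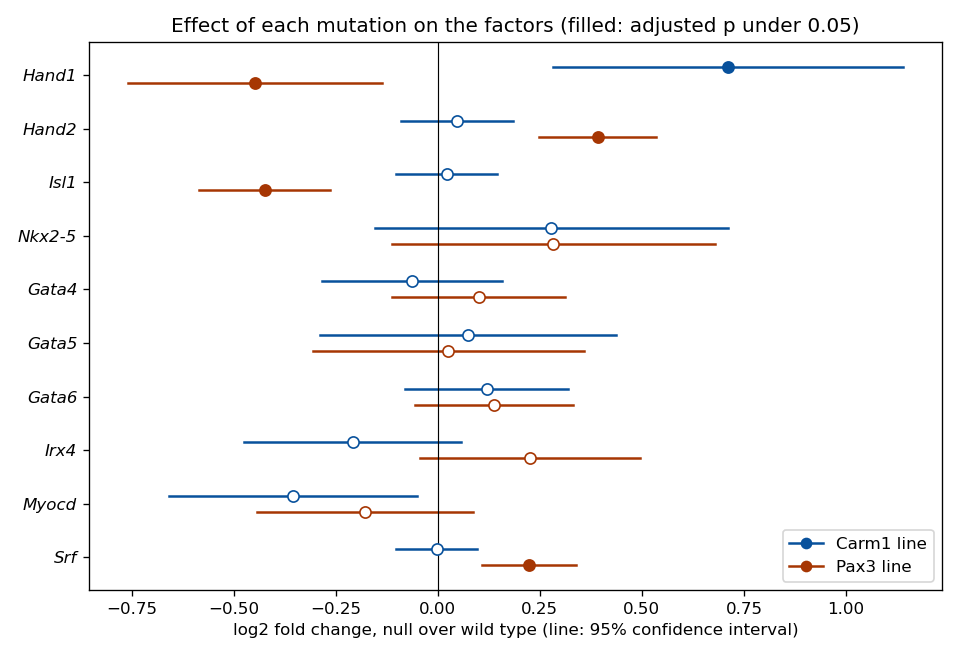
Log2 fold change, null against wild type, of each of the 10 genes in the *Carm1* and the *Pax3* line (horizontal axis) with 95% intervals from the edgeR fit. *Hand1* lies at 0.71 in the *Carm1* line and at −0.45 in the *Pax3* line, and the intervals of *Nkx2-5*, *Gata4*, *Gata5* and *Gata6* include 0 in both.

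*Hand1* (chr11:57828705-57832818, minus strand of GRCm38) moved in opposite directions in the 2 mutants. In *Carm1* null embryos it was counted 145, 109 and 117 times, against 81, 61 and 114 times in wild type, which corresponds to 8.06, 6.18 and 6.96 against 4.85, 2.66 and 5.63 CPM. Every null embryo was thus above every wild-type embryo, although the lowest null and the highest wild-type embryo were close. *Hand1* was 1.64-fold higher, a log2 fold change of 0.71 (SE 0.20, 95% interval 0.28 to 1.14, edgeR adjusted *P* = 0.025). This call rested on single libraries: the log2 fold change was 0.43 (edgeR adjusted *P* = 0.12) without wild-type replicate 2, the lowest library, 0.61 (edgeR adjusted *P* = 0.13) without null replicate 1, and 0.72 (edgeR adjusted *P* = 0.078) without null replicate 3. Without wild-type replicate 3, the library of that line with Y-linked counts, it was 0.96 (edgeR adjusted *P* = 4.33e-04).

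In *Pax3* null embryos *Hand1* was counted 119, 115 and 91 times, against 140, 120 and 138 times in wild type, or 5.24, 5.15 and 3.81 against 6.77, 6.86 and 5.87 CPM. All 3 null embryos lay below all 3 wild-type embryos. *Hand1* fell by 26.7%, a log2 fold change of −0.45 (SE 0.15, 95% interval −0.76 to −0.14, edgeR adjusted *P* = 0.031). DESeq2 gave −0.45 with an adjusted *P* of 0.066, and with length and GC offsets edgeR gave −0.67 with an adjusted *P* of 0.0029. A term for Y-linked counts gave −0.54 (edgeR adjusted *P* = 0.011). The call was lost without null replicate 3 (log2 fold change −0.31, edgeR adjusted *P* = 0.19), wild-type replicate 1 (−0.42, edgeR adjusted *P* = 0.091) or wild-type replicate 2 (−0.40, edgeR adjusted *P* = 0.086). The effects in the lines had opposite signs, so their difference had to exceed either of them. The difference between the lines was 1.17 on the log2 scale (SE 0.27, 95% interval 0.62 to 1.72, edgeR adjusted *P* = 0.0028). It passed the threshold in all 21 alternatives run, at 0.89 to 1.41. Across the groups, *Hand1* stood at 7.07 ± 0.94 CPM in *Carm1* null, 6.50 ± 0.55 in *Pax3* wild-type, 4.73 ± 0.80 in *Pax3* null and 4.38 ± 1.54 in *Carm1* wild-type embryos (mean ± SD, n = 3). *Carm1* null overlapped with *Pax3* wild type, and *Pax3* null with *Carm1* wild type. The wild types of the lines did not overlap, and strain and colony, which differ between the lines, cannot be told apart.

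HAND1 is also a factor of trophoblast and yolk sac, and RNA of these tissues was looked for. Of 16 trophoblast and yolk sac markers 5 had enough counts to be tested, and the placental lactogen gene *Prl3d1* and the spongiotrophoblast gene *Tpbpa* were at 0 in *Carm1* null and in all *Pax3* line libraries. Their summed level was 6.13 to 8.67 CPM in *Carm1* null and 5.51 to 7.65 CPM in *Carm1* wild-type embryos, and 6.11 to 7.43 CPM in *Pax3* null and 6.00 to 10.7 CPM in *Pax3* wild-type embryos. *Cubn*, which encodes an endocytic receptor of the yolk sac, was at 3.07 ± 0.38 against 2.03 ± 0.23 CPM in the *Carm1* line (log2 fold change 0.59, SE 0.22, edgeR adjusted *P* = 0.082) and fell in *Pax3* null embryos, at 1.73 ± 0.42 against 2.91 ± 1.19 CPM (log2 fold change −0.76, SE 0.27, edgeR adjusted *P* = 0.039). Of the 5 tested markers, *Cubn* included, 2 had positive and 3 negative log2 fold changes in the *Carm1* line. In the *Pax3* line 1 was positive and 4 were negative. The part of these tissues in the *Hand1* values was not tested.

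*Hand2* (chr8:57320983-57324633, plus strand), whose promoter is printed above, rose in *Pax3* null embryos. It was counted 1228, 1203 and 1232 times in null and 791, 714 and 1011 times in wild-type embryos, or 54.0, 53.9 and 51.6 against 38.3, 40.8 and 43.0 CPM. The groups were well apart. The level was 1.31-fold higher, a log2 fold change of 0.39 (SE 0.07, 95% interval 0.25 to 0.53, edgeR adjusted *P* = 1.61e-04). With length and GC offsets the log2 fold change was 0.17 and no longer passed (edgeR adjusted *P* = 0.059). *Hand2* in the *Carm1* line was counted 696, 836 and 801 times in null and 717, 990 and 878 times in wild-type embryos, or 38.7, 47.4 and 47.7 against 43.0, 43.1 and 43.3 CPM. The null libraries spread on both sides of a tight wild type, and the log2 fold change was 0.05 (95% interval −0.09 to 0.18, edgeR adjusted *P* = 0.72). The difference between the lines was −0.33 (SE 0.09, edgeR adjusted *P* = 0.012), and it did not pass with the offsets (−0.12, edgeR adjusted *P* = 0.37) or without *Carm1* null replicate 1 (−0.24, edgeR adjusted *P* = 0.074). The annotation places exons of *Hand2os1* on the opposite strand over 461 bases of *Hand2* exons, and the strand setting of the counting is not given in the sources used here, so reads of the 2 genes cannot be told apart.

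HAND2 is shared with the limb bud and with sympathetic neurons, and markers of both were examined. Of 14 limb bud markers tested in the *Pax3* line, 4 were higher and none lower (median log2 fold change 0.19), beside 14.0% of all genes higher and 10.5% lower. These were *Msx1*, at 33.0 ± 0.98 against 23.8 ± 1.73 CPM, the hindlimb factor *Pitx1*, at 75.8 ± 5.79 against 56.8 ± 3.21 CPM, *Hoxa11*, at 15.4 ± 0.52 against 11.7 ± 1.22 CPM, and *Hoxd11*. The summed limb bud level was 581 to 588 CPM in *Pax3* null and 549 to 580 CPM in *Pax3* wild-type embryos, and no marker was at 0. There were 2 of 14 higher in the *Carm1* line, among them *Shh*, the signal of the posterior limb bud, the notochord and the floor plate, at 14.5 ± 0.77 against 8.91 ± 0.80 CPM (log2 fold change 0.70, edgeR adjusted *P* = 2.39e-05), and *Prrx1* was lower. The summed level there was 488 to 513 CPM in null and 522 to 531 CPM in wild-type embryos.
Of 12 sympathetic neuron markers, 2 were higher and 1 lower in *Pax3* null embryos and none passed in the *Carm1* line, with a summed level of 174 to 187 against 163 to 174 CPM in the *Pax3* line and 176 to 182 against 172 to 174 CPM in the *Carm1* line. *Dbh*, which makes noradrenaline from dopamine, was at 0.480 ± 0.098 in *Pax3* null and 2.53 ± 0.38 CPM in wild-type embryos (log2 fold change −2.39, SE 0.30, edgeR adjusted *P* = 1.41e-06), while *Insm1*, a factor of neuroendocrine progenitors, was at 58.4 ± 5.53 against 45.9 ± 3.10 CPM and *Chgb*, a secretory granule protein, at 19.2 ± 1.36 against 16.2 ± 0.90 CPM. The sympathetic markers did not move together in the *Pax3* line, where 5 of 12 had positive and 7 negative log2 fold changes. The part of either tissue in the *Hand2* values was not tested.

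*Isl1* (chr13:116298281-116309689, minus strand) fell in *Pax3* null embryos. It was counted 705, 756 and 730 times in null and 949, 705 and 996 times in wild-type embryos, or 31.0, 33.8 and 30.5 against 45.9, 40.3 and 42.4 CPM. The highest null embryo was below the lowest wild-type embryo once depth was taken into account. *Isl1* fell by 25.5%, a log2 fold change of −0.42 (SE 0.08, 95% interval −0.58 to −0.26, edgeR adjusted *P* = 2.33e-04). The call held in all 16 alternatives run in that line, with length and GC offsets included (−0.37, edgeR adjusted *P* = 6.27e-04). *Isl1* in the *Carm1* line was at close levels in all libraries, with 42.4, 41.4 and 40.9 CPM in null and 40.4, 42.9 and 39.3 CPM in wild-type embryos, and the log2 fold change was 0.02 (95% interval −0.10 to 0.15, edgeR adjusted *P* = 0.87). The difference between the lines was 0.46 (SE 0.09, edgeR adjusted *P* = 6.90e-04), and it passed in all 21 alternatives, at 0.40 to 0.50.

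The neurons that make ISL1 were examined through their markers. Of 12 sensory neuron markers, 7 fell and none rose in *Pax3* null embryos (median log2 fold change −0.39, beside −0.0026 over all genes). Over all genes 10.5% were lower and 14.0% higher in that line. *Prdm12*, a factor of nociceptive neurons, fell from 14.2 ± 0.95 to 7.17 ± 0.28 CPM (log2 fold change −0.97, SE 0.11, edgeR adjusted *P* = 2.88e-07). The sodium channel gene *Scn9a* fell as well, from 25.5 ± 4.52 to 15.1 ± 0.67 CPM. The summed level of the list was 171 to 175 CPM in null and 215 to 225 CPM in wild-type embryos. Sensory neuron markers also fell in *Carm1* null embryos, 5 of 12 (median log2 fold change −0.30), with a summed level of 224 to 240 against 253 to 267 CPM, although *Isl1* did not pass there. *Runx1*, a factor of nociceptive neurons and of blood, was at 17.1 ± 2.25 against 22.5 ± 0.60 CPM in that line (log2 fold change −0.40, SE 0.09, edgeR adjusted *P* = 0.0022).
Of 10 motor neuron markers, 2 rose and 1 fell in each line, with the LIM homeobox genes *Lhx3* and *Lhx4* higher in both. The gene that fell was *Ret*, a receptor tyrosine kinase, in the *Pax3* line (11.3 ± 1.20 against 15.5 ± 1.46 CPM) and *Prph*, which encodes peripherin, in the *Carm1* line (25.4 ± 0.88 against 32.5 ± 2.62 CPM). The summed motor neuron level was 188 to 203 against 204 to 212 CPM in the *Pax3* line and 200 to 206 against 202 to 209 CPM in the *Carm1* line, and no sensory or motor neuron marker was at 0. *Pax3* null embryos thus had less *Isl1* and less of the sensory neuron markers, and the part of the one in the other was not tested.

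*Nkx2-5* (chr17:26838664-26845009, minus strand) had the lowest counts of the 10, and no change was called. It was counted 49, 51 and 60 times in *Carm1* null and 41, 57 and 53 times in wild-type embryos, or 2.72, 2.89 and 3.57 against 2.46, 2.48 and 2.62 CPM. The null embryos were all slightly higher, and the log2 fold change was 0.28 (95% interval −0.15 to 0.71, edgeR adjusted *P* = 0.44). It was counted 75, 75 and 87 times in *Pax3* null and 48, 62 and 64 times in wild-type embryos, or 3.30, 3.36 and 3.64 against 2.32, 3.54 and 2.72 CPM. The groups overlapped through wild-type replicate 2, and the log2 fold change was 0.28 (95% interval −0.11 to 0.68, edgeR adjusted *P* = 0.31). The offsets for length and GC gave −0.08 (edgeR adjusted *P* = 0.83), and the difference between the lines moved from 0.0067 to 0.32 (edgeR adjusted *P* = 0.45). The interval of the difference between the lines, −0.55 to 0.56, was too wide to tell whether the effects were alike.

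The GATA factors did not pass the threshold in either line. *Gata4* (chr14:63198922-63271692, minus strand) was at 12.3, 14.6 and 11.2 CPM in *Carm1* null and 14.0, 12.1 and 14.0 CPM in wild-type embryos, and at 14.8, 15.5 and 13.4 against 13.5, 12.1 and 15.3 CPM in the *Pax3* line. The groups overlapped in both lines, with log2 fold changes of −0.06 (95% interval −0.28 to 0.16) and 0.10 (−0.11 to 0.31). *Gata6* (chr18:11052064-11085635, plus strand), the most abundant of the 3 in CPM, was at 16.7, 19.7 and 17.7 CPM in *Carm1* null and 18.2, 14.2 and 17.8 CPM in wild-type embryos, and at 18.9, 22.3 and 17.4 against 17.8, 18.2 and 17.5 CPM in the *Pax3* line. Its log2 fold changes were 0.12 (95% interval −0.08 to 0.32) and 0.14 (−0.06 to 0.33). *Gata5* (chr2:180325133-180334699, minus strand), which acts in the endocardium, was at 4.50, 4.31 and 4.16 against 4.55, 4.44 and 3.36 CPM in the *Carm1* line and at 4.27, 5.42 and 4.02 against 4.55, 4.74 and 4.26 CPM in the *Pax3* line. Its log2 fold changes were 0.07 (95% interval −0.29 to 0.44) and 0.03 (−0.31 to 0.36). The edgeR adjusted *P* of the 3 genes lay at 0.48 or above in the *Carm1* line and at 0.31 or above in the *Pax3* line. Under the offsets the *Pax3* line values were −0.0090 for *Gata4*, −0.09 for *Gata5* and 0.09 for *Gata6*, none of them called. Without the offsets, a change of *Gata4* or *Gata6* of more than 0.33 in size on the log2 scale thus lay outside these intervals in both lines, whereas for *Gata5* changes of up to 0.44 remained within them. Exons of antisense genes overlap *Gata5* over 258 bases (*Gata5os*) and *Gata6* over 93 bases (*1010001N08Rik*), so reads of these cannot be told apart either.

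*Irx4* (chr13:73260479-73269608, plus strand) did not pass the threshold in either line, although its libraries did not overlap between the groups. It was counted 117, 131 and 123 times in *Carm1* null and 131, 205 and 156 times in wild-type embryos, or 6.50, 7.43 and 7.32 against 7.85, 8.93 and 7.70 CPM. The *Pax3* line had 173, 165 and 198 counts in null and 147, 128 and 134 in wild-type embryos, or 7.61, 7.39 and 8.28 against 7.11, 7.32 and 5.70 CPM. All null embryos were below wild type in the *Carm1* line and above it in the *Pax3* line, by narrow gaps. The log2 fold changes were −0.21 (SE 0.13, edgeR adjusted *P* = 0.32) and 0.23 (SE 0.13, edgeR adjusted *P* = 0.22), and their difference of −0.42 (95% interval −0.79 to −0.06) did not pass after adjustment (edgeR adjusted *P* = 0.095). With length and GC offsets the *Pax3* line value was 0.0080 (edgeR adjusted *P* = 0.97) and the difference −0.22 (edgeR adjusted *P* = 0.42), so the rise in the *Pax3* line was not seen under that setting.

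*Srf* (chr17:46548329-46556175, minus strand), the most abundant of the 10 and the one with CArG boxes in its own promoter, did not pass in the *Carm1* line, where its interval was narrow. It was counted 1434, 1414 and 1372 times in null and 1377, 1859 and 1594 times in wild-type embryos, or 79.7, 80.2 and 81.6 against 82.5, 81.0 and 78.7 CPM. The log2 fold change was −0.0029 (95% interval −0.10 to 0.10, edgeR adjusted *P* = 0.98). In *Pax3* null embryos it was counted 2054, 2129 and 2092 times, against 1614, 1377 and 1844 times in wild type, or 90.4, 95.3 and 87.5 against 78.1, 78.7 and 78.5 CPM. *Srf* was 1.17-fold higher there, a log2 fold change of 0.22 (SE 0.06, 95% interval 0.11 to 0.34, edgeR adjusted *P* = 0.0047). This rise was not present with length and GC offsets, which gave −0.0099 (edgeR adjusted *P* = 0.93). The difference between the lines, −0.22 (SE 0.07, edgeR adjusted *P* = 0.032), did not pass in 7 of 21 alternatives, the offsets among them (−0.02, edgeR adjusted *P* = 0.89). The other 6 left out *Carm1* null replicate 1 or 2, *Carm1* wild-type replicate 1 or 2, or *Pax3* null replicate 1 or 2, with values of −0.22 to −0.18 and edgeR adjusted *P* of 0.053 to 0.092.

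*Myocd* (chr11:65176561-65269989, minus strand) lay lower in null embryos of both lines on average and passed in neither. It was counted 108, 120 and 126 times in *Carm1* null and 186, 178 and 148 times in wild-type embryos, or 6.00, 6.81 and 7.50 against 11.1, 7.75 and 7.30 CPM. Wild-type replicate 1 was high and replicate 3 lay within the null range, so the groups overlapped. The log2 fold change was −0.35 (SE 0.15, 95% interval −0.66 to −0.05, edgeR adjusted *P* = 0.12). It passed without wild-type replicate 3 (−0.46, edgeR adjusted *P* = 0.035) and with a term for Y-linked counts (−0.46, edgeR adjusted *P* = 0.036), which are nearly the same fit because that library alone has Y-linked counts in the line. It did not pass in DESeq2 with the same term (−0.47, adjusted *P* = 0.24), and in edgeR it was −0.16 (edgeR adjusted *P* = 0.56) without wild-type replicate 1. *Myocd* in the *Pax3* line was counted 137, 155 and 148 times in null and 156, 118 and 175 times in wild-type embryos, or 6.03, 6.94 and 6.19 against 7.54, 6.74 and 7.45 CPM. The groups overlapped, with a log2 fold change of −0.18 (SE 0.13, 95% interval −0.44 to 0.09, edgeR adjusted *P* = 0.34).

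Ratios of raw counts within a library do not depend on its depth, and 7 such ratios were computed in each line. *Hand1* per *Hand2* was 0.208, 0.130 and 0.146 in *Carm1* null and 0.113, 0.0616 and 0.130 in *Carm1* wild-type embryos, and 0.0969, 0.0956 and 0.0739 in *Pax3* null against 0.177, 0.168 and 0.137 in *Pax3* wild-type embryos. The ratio was above wild type in the one mutant and below it in the other, and in the *Carm1* line null replicate 2 and wild-type replicate 3 nearly touched. *Isl1* per *Hand2* was 0.574, 0.628 and 0.593 in *Pax3* null and 1.20, 0.987 and 0.985 in *Pax3* wild-type embryos, while in the *Carm1* line the groups overlapped at 0.942 ± 0.133 against 0.948 ± 0.044. *Myocd* per *Srf*, coactivator per partner, was 0.0753, 0.0849 and 0.0918 against 0.135, 0.0958 and 0.0928 in the *Carm1* line, and 0.0667, 0.0728 and 0.0707 against 0.0967, 0.0857 and 0.0949 in the *Pax3* line. This ratio was lower in every null embryo than in any wild-type embryo of its line, in the *Carm1* line by a narrow gap. Raw counts carry the GC trend of the *Pax3* line, and GC content was 49.9% for *Myocd* and 64.4% for *Srf*, 45.7% for *Isl1* and 59.3% for *Hand2*. Under the offsets the *Pax3* line log2 fold changes were −0.14 for *Myocd* and −0.0099 for *Srf*, against −0.18 and 0.22 without, and −0.37 for *Isl1* and 0.17 for *Hand2*, against −0.42 and 0.39.
Among the remaining ratios, *Gata4* per *Gata6* was lower in *Carm1* null embryos (0.703 ± 0.060 against 0.802 ± 0.040) and overlapped in the *Pax3* line (0.751 ± 0.048 against 0.765 ± 0.106), *Gata5* per *Gata6* was lower in *Pax3* null embryos (0.233 ± 0.0086 against 0.253 ± 0.0088) and overlapped in the *Carm1* line, and *Nkx2-5* per *Hand2* and *Irx4* per *Hand2* were separated in the *Carm1* line alone, the former higher (0.0688 ± 0.0071 against 0.0584 ± 0.0017) and the latter lower (0.159 ± 0.0077 against 0.189 ± 0.016) in null embryos. Some of these gaps were very narrow. For *Gata5* per *Gata6* in the *Pax3* line, the highest null embryo was at 0.2430 and the lowest wild-type embryo at 0.2433. For *Nkx2-5* per *Hand2* in the *Carm1* line, the lowest null embryo was at 0.0610 and the highest wild-type embryo at 0.0604. With 3 embryos against 3 the exact permutation test, two-sided, cannot go below *P* = 0.1, which each separated ratio reached. How often ratios of other gene pairs separate was not computed, so these separations have no background share. For levels of single genes the groups did not overlap for 30.0% of all genes in the *Carm1* line and 39.9% in the *Pax3* line. Several of the ratios also share *Hand2* as denominator and are not independent.

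**Figure D3:**
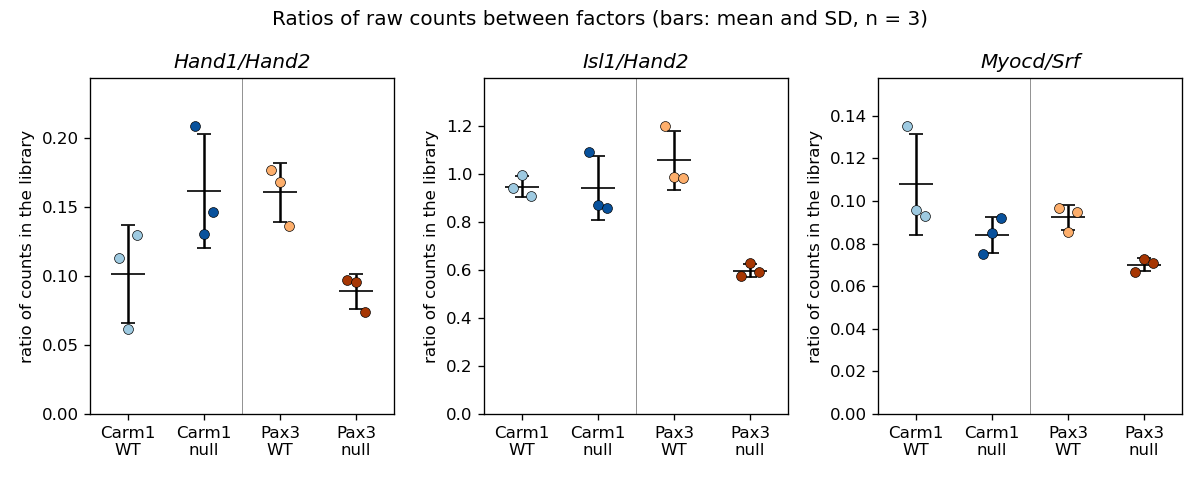
Ratios of raw counts of *Hand1* per *Hand2*, *Isl1* per *Hand2* and *Myocd* per *Srf* in each embryo (vertical axes, no unit, starting at 0), by line and genotype, with bars for the mean and SD (n = 3). *Isl1* per *Hand2* lies between 0.574 and 0.628 in *Pax3* null embryos and between 0.985 and 1.20 in their wild type, and *Myocd* per *Srf* is lower in null embryos of both lines.

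The other regulators of the heart fields showed changes in both directions. Of 26 tested in the *Carm1* line, 4 were higher and 4 lower (median log2 fold change 0.03), beside 5.49% of all genes higher and 7.83% lower. *Foxc1*, a forkhead factor of the pharyngeal and second heart field mesoderm, was higher at 64.7 ± 2.81 against 51.0 ± 2.68 CPM (log2 fold change 0.35, edgeR adjusted *P* = 4.52e-05). *Mef2c*, a MADS box factor that acts with MYOCD in muscle and is downstream of ISL1 in the second heart field, was lower at 71.1 ± 1.27 against 85.6 ± 0.81 CPM (−0.27, edgeR adjusted *P* = 2.17e-04), and *Smyd1*, a muscle methyltransferase, was lower at 28.0 ± 0.87 against 34.6 ± 1.61 CPM (−0.31, edgeR adjusted *P* = 0.0023). Of the same 26 in the *Pax3* line, 6 were higher and 6 lower (median 0.07), beside 14.0% of all genes higher and 10.5% lower. *Mef2c* and *Smyd1* were again lower, at 43.1 ± 2.70 against 66.1 ± 1.96 CPM (−0.61, edgeR adjusted *P* = 8.47e-08) and at 19.1 ± 0.56 against 27.0 ± 3.57 CPM (−0.50, edgeR adjusted *P* = 2.22e-04). *Tbx2*, a repressor of chamber genes in the atrioventricular canal, was higher at 113 ± 5.24 against 86.0 ± 3.99 CPM (0.40, edgeR adjusted *P* = 9.65e-06). *Mef2c* and *Smyd1* are also expressed in skeletal muscle, so whole-embryo values do not show which muscle they come from.

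Binding partners and cofactors were described in the same way, and 4 of 22 were higher and 2 lower in the *Carm1* line against 5 and 6 in the *Pax3* line. Over all genes 5.49% were higher and 7.83% lower in the *Carm1* line, against 14.0% and 10.5% in the *Pax3* line. *Zfpm1*, which encodes the GATA cofactor FOG1, was lower in *Carm1* null embryos at 47.3 ± 2.67 against 59.8 ± 4.19 CPM (log2 fold change −0.34, edgeR adjusted *P* = 1.76e-04). *Zfpm2*, of the same list, did not pass in the *Carm1* line (−0.18, edgeR adjusted *P* = 0.24) or the *Pax3* line (−0.20, edgeR adjusted *P* = 0.15). Which GATA factor a lower *Zfpm1* bears on was not tested. *Id1*, an inhibitor that takes E proteins away from basic helix-loop-helix factors, and *Tcf12*, such an E protein, were higher in *Carm1* null embryos, *Id1* at 69.7 ± 3.56 against 56.1 ± 2.09 CPM (0.31, edgeR adjusted *P* = 1.25e-04) and *Tcf12* at 381 ± 6.44 against 346 ± 4.27 CPM (0.14, edgeR adjusted *P* = 0.021). In *Pax3* null embryos *Id3*, another such inhibitor, was higher at 175 ± 1.87 against 123 ± 11.9 CPM (0.52, edgeR adjusted *P* = 5.33e-07), and *Twist1*, a partner of HAND2 in mesenchyme, at 201 ± 8.02 against 151 ± 13.5 CPM (0.42, edgeR adjusted *P* = 8.47e-06). *Phb2*, a prohibitin, was higher at 217 ± 2.04 against 176 ± 5.03 CPM (0.31, edgeR adjusted *P* = 4.73e-05).

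Contractile genes of cardiomyocytes include many targets of GATA4, NKX2-5, SRF and MYOCD. Of 30 such genes 12 were lower in *Carm1* null embryos and none were higher, beside 7.83% of all genes lower, with a median log2 fold change of −0.32 beside 0.0014 over all genes. *Actn2*, which encodes the Z-disc protein alpha-actinin, was at 45.6 ± 1.62 against 73.5 ± 3.67 CPM (log2 fold change −0.69, edgeR adjusted *P* = 9.87e-11). *Tnnt2*, cardiac troponin T, was at 48.0 ± 0.05 against 68.5 ± 0.79 CPM (−0.51, edgeR adjusted *P* = 1.55e-08), and *Actc1*, cardiac actin, at 214 ± 10.9 against 285 ± 7.45 CPM (−0.41, edgeR adjusted *P* = 2.41e-08). *Actn2* and *Actc1* are also made in embryonic skeletal muscle. Whole-embryo values do not show which muscle any gene of this list comes from, *Tnnt2* included. The paper lists skeletal muscle development among the gene sets with reduced expression in *Carm1* null embryos. Of the 30 genes, 26 had negative and 4 positive log2 fold changes. *Myh6* (−0.47), *Tnni3* (−0.39) and *Mybpc3* (−0.33) were also called lower, while *Myl7* (−0.03), *Nppa* (−0.12) and *Myl2* (−0.13) did not pass. The summed level of the list was 1359 to 1390 CPM in null and 1624 to 1775 CPM in wild-type embryos, and no gene of the list was at 0 in any group.
In *Pax3* null embryos the list split, with 8 of 30 higher and 3 lower (median 0.10). *Myl7*, the atrial myosin light chain, rose to 29.0 ± 1.93 from 16.5 ± 1.51 CPM (0.82, edgeR adjusted *P* = 1.60e-07), while *Actc1* fell to 147 ± 7.13 from 224 ± 10.97 CPM (−0.60, edgeR adjusted *P* = 7.04e-09) and *Actn2* to 30.3 ± 3.54 from 50.4 ± 6.05 CPM (−0.72, edgeR adjusted *P* = 2.74e-06). The same limit, that whole-embryo values do not show the muscle of origin, applies to the whole list here. With length and GC offsets 6 genes of the list were higher and 6 lower in the *Pax3* line, beside 1504 higher and 1249 lower of all 15724 genes tested under that setting. The summed level was 1204 to 1341 CPM in null and 1296 to 1384 CPM in wild-type embryos.

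Smooth muscle genes, the other targets of SRF with MYOCD, changed in both directions in the *Carm1* line, with 3 of 18 higher and 4 lower. In the *Pax3* line none was called higher and 7 of 18 were lower. Over all genes 5.49% were higher and 7.83% lower in the *Carm1* line, against 14.0% and 10.5% in the *Pax3* line. The genes higher in *Carm1* null embryos were *Tagln* (log2 fold change 0.23), *Smtn* (0.19) and *Myl9* (0.15). Among *Carm1* line embryos the lower genes with the smallest P were *Des*, which encodes desmin, at 37.4 ± 1.10 against 46.1 ± 4.04 CPM, *Tpm2*, a tropomyosin, at 125 ± 4.17 against 141 ± 1.88 CPM, and *Myh11*, smooth muscle myosin, at 8.82 ± 1.80 against 13.0 ± 2.36 CPM. For the *Pax3* line they were *Tpm2* at 65.7 ± 3.47 against 95.3 ± 6.73 CPM (log2 fold change −0.53, edgeR adjusted *P* = 4.13e-07), *Acta2*, smooth muscle actin, at 61.7 ± 6.07 against 93.5 ± 6.83 CPM (−0.59, edgeR adjusted *P* = 5.67e-07), and *Des* at 28.9 ± 1.87 against 37.4 ± 2.25 CPM (−0.36, edgeR adjusted *P* = 0.0018). Desmin and this tropomyosin are shared with skeletal muscle, and whole-embryo values do not show which muscle any gene of this list, *Acta2* included, comes from. Not all smooth muscle genes fell in the *Pax3* line, where 13 of 18 had negative and 5 positive log2 fold changes. *Myh11* (−0.05, edgeR adjusted *P* = 0.84), *Cnn1* (0.23, edgeR adjusted *P* = 0.31) and *Tagln* (0.09, edgeR adjusted *P* = 0.53) did not pass there. Among SRF targets of the immediate early kind, none was higher in either line. There was 1 of 15 lower in the *Carm1* line, *Actb* at 2205 ± 80.3 against 2468 ± 106 CPM (−0.16, edgeR adjusted *P* = 0.023). The *Pax3* line had 2 of 14 lower, *Actb* at 1977 ± 56.0 against 2315 ± 73.5 CPM (−0.22, edgeR adjusted *P* = 0.014) and *Actg1* at 1464 ± 29.6 against 1763 ± 25.2 CPM (−0.26, edgeR adjusted *P* = 0.0041), both cytoplasmic actins.

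**Figure D4:**
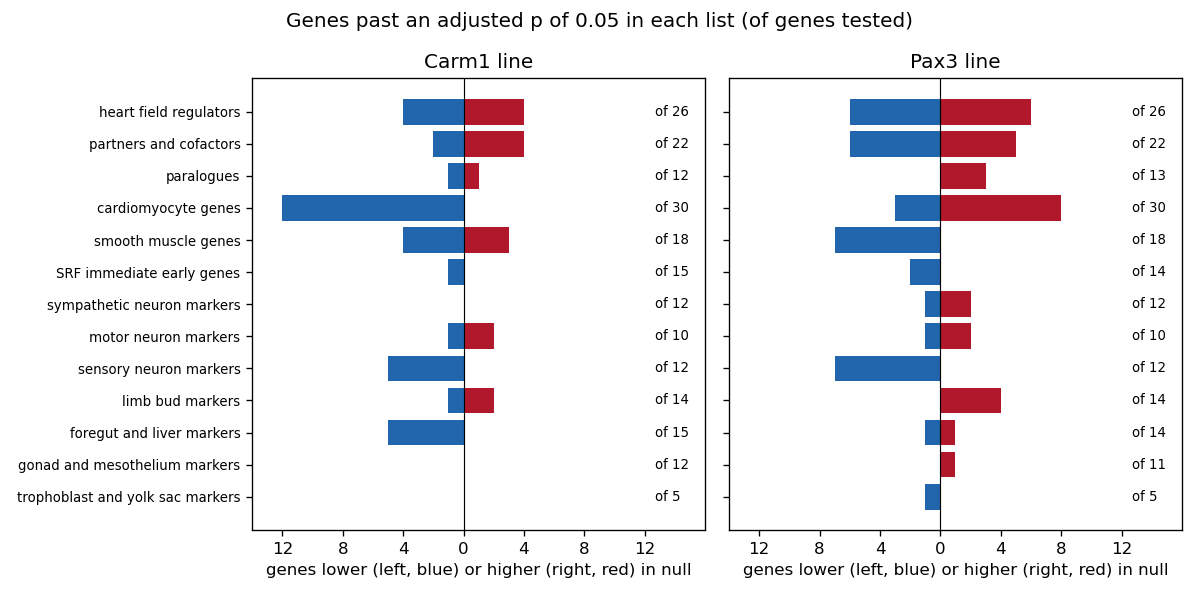
Number of genes of each list (horizontal axis) that were higher (red, to the right) or lower (blue, to the left) in null embryos at an adjusted P under 0.05, in the *Carm1* and the *Pax3* line, with the number tested at the right. Cardiomyocyte genes have 12 of 30 lower and none higher in the *Carm1* line against 3 lower and 8 higher in the *Pax3* line, and sensory neuron markers have 5 and 7 of 12 lower.

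Genes whose levels followed each factor closely, from the 3 nearest, were found by Pearson correlation of log2 CPM over the 12 libraries, after the mean of each line was subtracted, among 14487 genes. The libraries share their groups, so these correlations largely repeat the contrasts above and are a description. *Isl1* was followed by *Ppp6r3* (r = 0.990), *Rcor1* (0.979) and *Zmym4* (0.977), *Hand2* by *Stub1* (0.984), *2610507I01Rik* (0.961) and *Ube2j2* (0.951), and *Srf* by *Cdh24* (0.970) and *Snrnp70* (0.969). The genes with low counts had lower values. *Hand1* was followed by *Lrp2* (0.872) and *Wdr96* (0.872), *Nkx2-5* by *Tmem119* (0.913) and *Lonrf1* (0.906), *Irx4* by *Ptp4a3* (0.922), *Tprn* (0.894) and *Pim1* (0.881), and *Myocd* by *Cacna1b* (0.906), *Slc16a14* (0.891) and *Atp2b3* (0.880). For the GATA factors they were *Sgpp2* (0.820), *Msto1* (0.809) and *Fmnl1* (0.805) with *Gata4*, *Fbf1* (0.919), *Adam11* (0.898) and *Gatad2a* (0.888) with *Gata5*, and *Trim71* (0.882), *Mettl17* (0.870) and *Hip1r* (0.862) with *Gata6*. No member was among the 3 nearest genes of another.

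**Figure D5:**
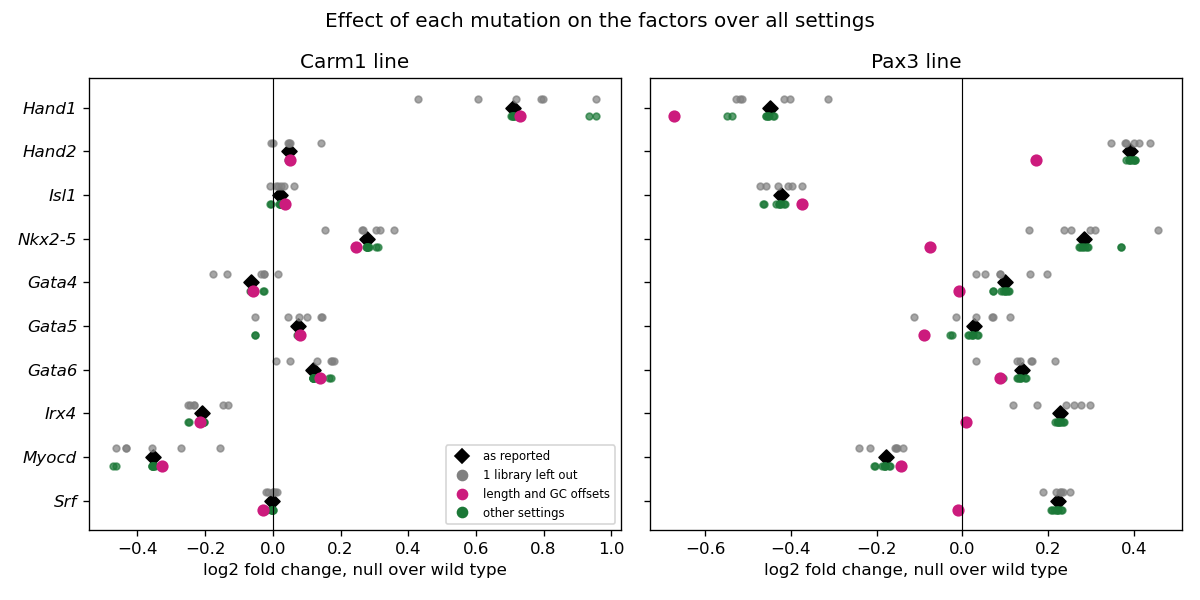
Log2 fold change, null against wild type (horizontal axis), of the 10 factors in the *Carm1* and the *Pax3* line as reported (black) and under each alternative of the processing: 1 library left out (grey), length and GC offsets (pink) and other settings (green). *Hand1* stays above 0 in the *Carm1* line, at 0.43 to 0.96, and below 0 in the *Pax3* line, at −0.67 to −0.31, while *Srf* in the *Pax3* line moves from 0.22 to −0.0099 with length and GC offsets.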

How the data were processed

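Whole mouse embryos at E12.5 gave 12 polyA RNA libraries, 3 in each of 4 groups. The deposited values are raw counts per gene, which the authors made by aligning paired reads to mm10 with STAR and counting reads on exons with featureCounts. Tool versions, the strand setting and the gene annotation are not given in the sources used here.

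Counts were tested in each line with the quasi-likelihood method of edgeR (version 4.0.16, R 4.3.3, limma 3.58.1), with TMM factors, filterByExpr, robust dispersions, Benjamini-Hochberg adjustment over all genes tested and a threshold of 0.05. The difference between the lines was the *Carm1* minus the *Pax3* effect in a fit of 12 libraries. SE is the log2 fold change divided by the square root of F, and 95% intervals follow from it. CPM values share a TMM scale over all 12 libraries. GENCODE annotation of GRCm38 matched 21785 symbols as written and 1276 by an older symbol, with 359 unmatched, and gave coordinates, exon lengths and GC content. The fits were tested on simulated data. No pair of replicates held identical values (chi-square per degree of freedom 3.15 to 24.4).

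The factors and gene lists were chosen with earlier results of these data known. From each list up to 3 genes per line with the smallest adjusted *P* below the threshold are named, or, where none passed, the most abundant gene. Some genes that this rule or the correlations select are not reported here. *Hoxd11* among the limb bud markers completes a count of 4 and was named after its value was seen. So were *Zfpm2* and the smooth muscle and cardiomyocyte genes named beyond this rule. Alternatives were DESeq2 (version 1.42.0), RLE and upper-quartile factors, no filter, at least 10 counts in every library, 1 fit of 12 libraries, a replicate block, a term for Y-linked counts (at least 100 counts) in both tools, length and GC offsets by splines, and leaving out each library.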

Additional observations from a re-analysis of the deposited data

Results flagged for a closer look

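The effect of the null allele differed between the lines for 4 of the factors by the test of the difference itself (*Carm1* line effect minus *Pax3* line effect, edgeR, Benjamini-Hochberg adjustment over 16292 genes). For *Hand1* the difference was 1.17 on the log2 scale (adjusted *P* = 0.0028), with the null embryos higher in 3 of 3 in the *Carm1* line and lower in 3 of 3 in the *Pax3* line. For *Isl1* it was 0.46 (edgeR adjusted *P* = 6.90e-04), for *Hand2* −0.33 (edgeR adjusted *P* = 0.012) and for *Srf* −0.22 (edgeR adjusted *P* = 0.032), each with a change called in the *Pax3* line and none called in the *Carm1* line. Strain and colony differ between the lines and cannot be told apart from the allele.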

How the results depend on the processing

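The count of factors called moved by more than 1.5 times with a term for Y-linked counts in the *Carm1* line (2, with *Myocd* added) and with length and GC offsets in the *Pax3* line (2, *Hand1* and *Isl1*) and for the difference (2, the same 2 genes). Leaving out each library gave 0 to 2 factors in the *Carm1* line, 3 to 4 in the *Pax3* line and 2 to 4 for the difference.

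Log2 fold changes that turned sign were, for the *Carm1* line, *Srf* with DESeq2 (1.64e-04), *Isl1* with the Y-linked term (−0.0070, and −0.0045 in DESeq2) and *Gata5* with that term (−0.054 in edgeR and in DESeq2). For the *Pax3* line they were *Gata5* with the Y-linked term (−0.025, and −0.030 in DESeq2) and, with the offsets, *Nkx2-5* (−0.077), *Gata4* (−0.0090), *Gata5* (−0.091) and *Srf* (−0.0099, against a called 0.22). The difference for *Gata6* was 0.047 with the offsets. Leaving out each library gave −0.0043 to 0.14 for *Hand2*, −0.0069 to 0.061 for *Isl1*, −0.18 to 0.015 for *Gata4*, −0.054 to 0.15 for *Gata5* and −0.021 to 0.013 for *Srf* in the *Carm1* line, −0.11 to 0.11 for *Gata5* in the *Pax3* line, and for the difference −0.16 to 0.13 for *Nkx2-5*, −0.070 to 0.20 for *Gata5*, −0.12 to 0.096 for *Gata6* and −0.28 to 0.034 for *Myocd*. The cause was not tested.

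Replicate numbers were not treated as pairs in the main fits. Null and wild-type embryos of the same number deviated with correlations of −0.041, 9.46e-04 and −0.042 in the *Carm1* line and 0.13, −0.091 and 0.23 in the *Pax3* line. These values cannot show whether embryos of the same number shared a litter. With the replicate block 1, 4 and 4 factors were called in the *Carm1* line, the *Pax3* line and for the difference, all as without it, the difference for *Gata6* was 0.0025, and 1787, 4177 and 3094 genes were called in all, against 2106, 3851 and 3115.

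Over all genes in the *Carm1* line, 854 were called by DESeq2 with the Y-linked term, 1224 without null replicate 1, 1381 without null replicate 2 and 1349 without wild-type replicate 2, and 3023 with the offsets, of which 1689 were higher and 1334 lower against 868 and 1238. The *Pax3* line had 2454 genes called without null replicate 3 and 2565 without null replicate 1, against 3851. Of 832 values for gene list counts 699 stayed within 1.5 times and 133 did not, and of 80 group levels 2 moved by more than the SD. The 41 to 145 counts of *Nkx2-5*, *Gata5* and *Hand1* limit their precision.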

Other observations

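Paralogues of the factors, not among the 10, were measured in the same libraries. In *Carm1* null embryos *Gata1*, a factor of red blood cell precursors, was lower at 13.6 ± 2.52 against 21.0 ± 0.63 CPM (log2 fold change −0.62, SE 0.10, edgeR adjusted *P* = 4.65e-05), and *Gata2*, a factor of blood progenitors and endothelium, was higher at 29.0 ± 2.41 against 24.1 ± 0.73 CPM (0.27, edgeR adjusted *P* = 0.014), while the other 10 paralogues tested did not pass. In *Pax3* null embryos 3 of 13 were higher, *Irx3* at 66.9 ± 2.55 against 52.8 ± 1.15 CPM (0.35, edgeR adjusted *P* = 8.97e-05), *Irx1* at 40.1 ± 1.23 against 33.1 ± 0.77 CPM (0.29, edgeR adjusted *P* = 0.0061) and *Gata2* at 30.0 ± 1.73 against 24.9 ± 0.38 CPM (0.28, edgeR adjusted *P* = 0.013). None of these 3 was called as higher with length and GC offsets.

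GATA4 and GATA6 also act in the foregut, liver, gonad and mesothelium. Of 15 foregut and liver markers 5 were lower and none higher in *Carm1* null embryos, among them *Afp*, the fetal serum protein, at 482 ± 25.8 against 760 ± 76.0 CPM, *Ttr*, transthyretin, at 49.6 ± 2.0 against 72.9 ± 7.44 CPM, and *Hnf4a*, a hepatocyte factor, at 5.01 ± 1.37 against 12.4 ± 1.83 CPM (log2 fold change −1.30, SE 0.16, edgeR adjusted *P* = 2.09e-06). The summed level of the 16 listed was 772 to 886 CPM in null and 1387 to 1660 CPM in wild-type embryos, while *Gata4* and *Gata6* did not pass. The *Pax3* line had 1 of 14 higher (*Sox17*, 10.9 ± 0.32 against 8.53 ± 0.80 CPM) and 1 lower (*Afp*, 486 ± 15.5 against 636 ± 85.1 CPM), with a summed level of 851 to 934 against 1005 to 1216 CPM. Of the gonad and mesothelium markers 1 of 11 was higher in *Pax3* null embryos, *Tcf21*, a factor of the epicardium and mesothelium, at 10.5 ± 0.35 against 6.72 ± 0.75 CPM (0.65, SE 0.12, edgeR adjusted *P* = 2.39e-04). None of 12 passed in *Carm1* null embryos, where the most abundant, *Sox9*, was at 155 ± 5.65 against 147 ± 4.71 CPM.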
